A study of Homo sapiens with 20 samples.

Results

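UO-31 is an established human line from a kidney tumor, and its 2 libraries from cells given the vehicle alone were set against the 8 vehicle libraries of COLO320DM, ABC-1, OVCAR-4 and RKO. Members were chosen by their labels: 2 of the 20 libraries of the series, and 2 of its 10 DMSO libraries. The study treated these 5 tumor cell lines with the tankyrase inhibitor G007-LK, and the DMSO libraries give the state each line had without the drug. All 10 libraries came from cells kept for 24 h in 0.01% DMSO, in medium with fetal bovine serum, and each line gave 2 biological replicates of poly(A) RNA. COLO320DM is labelled colorectal adenocarcinoma, ABC-1 lung adenocarcinoma, OVCAR-4 ovary and RKO colon carcinoma. UO-31, COLO320DM and OVCAR-4 grew in RPMI-1640, whereas ABC-1 and RKO grew in EMEM. There is 1 kidney line, so what belongs to UO-31 and what belongs to kidney tumor lines cannot be told apart. The tests measure only the spread between the 2 libraries of each line.

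The kidney filters blood and recovers water, salts, glucose and amino acids along the nephron, whose proximal tubule carries most of the transporters and brush border enzymes. PAX2 and PAX8 are transcription factors that build the nephron in the embryo, and PAX8 also acts in tissues of the female reproductive tract. Most renal cell carcinomas are thought to arise from tubule epithelium. The clear cell type typically loses VHL, the protein that marks hypoxia-inducible factors for destruction, and injured or transformed tubule cells often take on mesenchymal genes while keeping simple keratins.

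The values are RPKM, reads scaled by gene length and by the mapped reads of the library, so levels of genes can be compared within a library. Between lines they depend also on the scale of the table. Differences are given on the log2(RPKM + 0.5) scale, which understates the distance of genes with low values. The RPKM of a library summed to between 498181 and 514173 in UO-31, against 895010 to 909187 in OVCAR-4 and 381878 to 494250 in the libraries of COLO320DM, ABC-1 and RKO. Read counts are not in the table, so the depth is unknown, but the spacing of the smallest values put the reads of an OVCAR-4 library at 0.548 to 0.579 times those of UO-31 DMSO 1, and those of the other 3 lines at 1.077 to 1.35 times. The OVCAR-4 values thus stood above the rest as a whole: the median difference of UO-31 from OVCAR-4 over all genes moved by -0.77 log2 units between values rescaled by median ratios and values as deposited. Levels beside OVCAR-4 are therefore as deposited, and for the genes and counts that turn on that line the value after rescaling or without OVCAR-4 is added.

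Over the 10 libraries, 12544 genes averaged 1 RPKM or more. Of these, 4769 (38%) were higher and 5788 (46.1%) were lower in UO-31 than in the mean of the other 4 lines, each line weighted equally (limma, adjusted p under 0.05). After rescaling, 5536 were higher and 5365 lower. Because a difference from a mean can rest on 1 line, a gene was called distinctly higher when UO-31 exceeded each of the 4 lines by at least 1 log2 unit with an adjusted p under 0.05, and distinctly lower in the mirrored case. This left 531 genes distinctly higher (4.23% of those tested) and 188 distinctly lower (1.5%). After rescaling the counts were 690 (5.5%) and 171 (1.36%), and 502 of the 531 and 144 of the 188 kept the call. Among the 531 genes, 134 had no other line reaching 1 RPKM and 60 stood at least 4 log2 units from every line. Without OVCAR-4, 1155 of 12185 genes were distinctly higher (9.48%) and 231 distinctly lower (1.9%), and with rescaling as well 1036 (8.5%) and 290 (2.38%). The list counts below stand beside the shares of all genes, 38% higher, 46.1% lower, 4.23% distinctly higher and 1.5% distinctly lower. Counts of distinctly higher genes without OVCAR-4 stand beside that 9.48%.

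The genes farthest above the nearest other line are given first. TM4SF4, a membrane protein with 4 transmembrane passes, had 131 and 117 RPKM in UO-31, against 0 to 0.245 RPKM (median 0.0123) in the 8 other libraries. It stood 7.42 log2 units above its nearest line. SPARC, a collagen-binding matrix glycoprotein, had 239 and 219 RPKM in UO-31, against 0 to 1.12 RPKM (median 0.458). INHBA, which encodes the subunit of activin A, had 120 and 115 RPKM in UO-31, against at most 0.309 RPKM elsewhere. GDF5, a ligand of the bone morphogenetic protein family, had 75.5 and 78.7 RPKM in UO-31 and at most 0.2 RPKM in the others. None of these 4 genes reached 2 RPKM in any library of another line.

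CYP24A1 encodes the mitochondrial enzyme that inactivates vitamin D, a step the kidney is known for. It had 185 and 187 RPKM in UO-31, against at most 1.31 RPKM in the others, 6.79 log2 units from the nearest line. The secreted proteins EPDR1 (136 and 132 RPKM in UO-31, at most 0.808 RPKM elsewhere), CYTL1 (76.5 and 67.1 RPKM, at most 0.312) and EFEMP2 or fibulin-4 (113 and 106 RPKM, at most 0.882), an organizer of elastic fibers, behaved alike. CDH13, a cadherin held to the membrane by a lipid anchor, had 59.6 and 56.4 RPKM in UO-31 and at most 0.0962 RPKM in the others. The matrix protein gene THBS2 had 58 and 54 RPKM in UO-31. APBB1IP, an adaptor that activates integrins through talin, had 65.2 and 63.9 RPKM there, and TRIM55, a ubiquitin ligase known from muscle, had 68.9 and 66.4 RPKM. RRAD, a small GTPase that restrains calcium channels, had 35.9 and 37.9 RPKM. VCAM1 and HAVCR1, described with the tubule genes, completed the 15. The nearest line was 5.77 to 7.42 log2 units below UO-31 for these 15 genes, the highest adjusted p of any of their 60 line contrasts was 3.5e-13 (limma), and all 15 kept the call in every alternative tried.

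**Figure D1:**
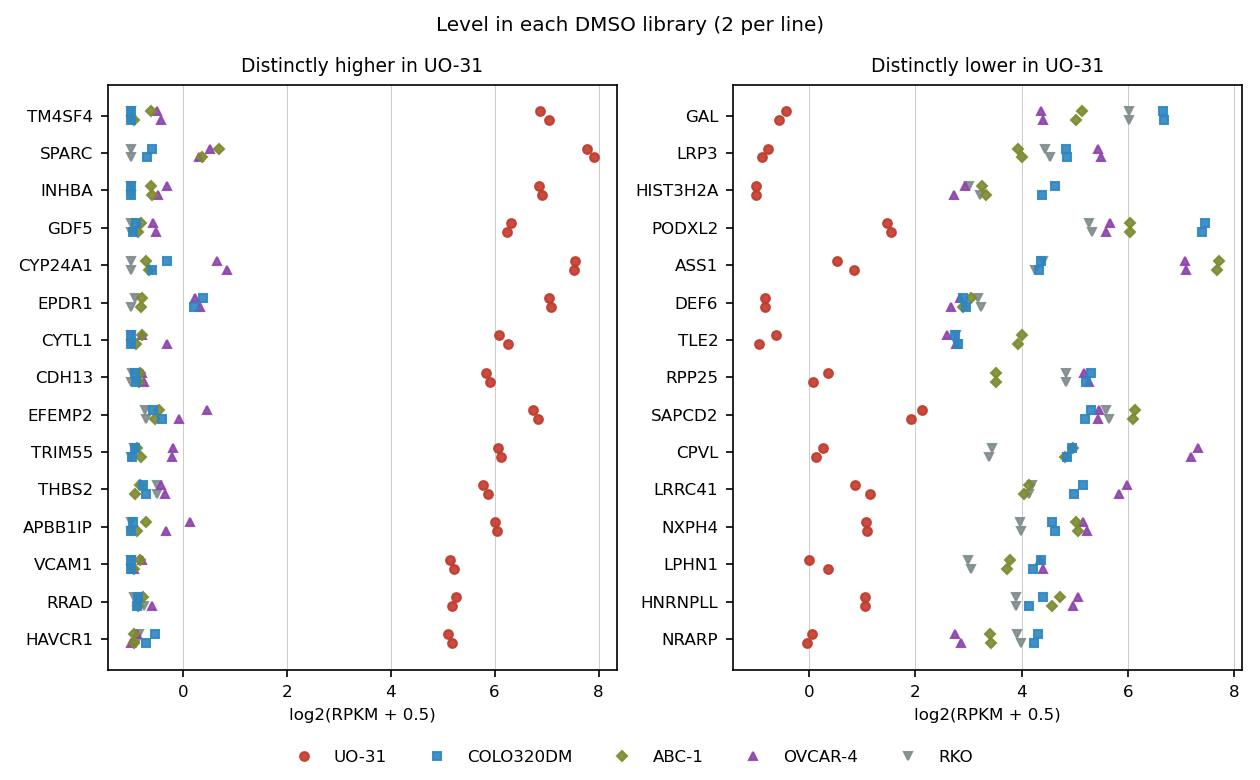
Levels of the 15 genes distinctly higher (left) and the 15 distinctly lower (right) in UO-31 that lay farthest from the nearest other line, on the log2(RPKM + 0.5) axis, with 1 symbol per DMSO library and 2 libraries per line. The red UO-31 circles stand apart from the symbols of the other 4 lines for each gene, 5.77 to 7.42 log2 units above the nearest line mean on the left and 2.79 to 4.89 below it on the right.

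The kidney label was checked against lineage factors and nephron genes. Of 29 lineage transcription factors, 15 were tested, 4 were higher, 6 lower, and 1, PAX2, was distinctly higher, where 38%, 46.1% and 4.23% of all genes were. Their median difference was -0.03 log2 units, with 0.03 after rescaling, beside -0.10 and 0 for all genes. The 6 lower factors were EMX2, SIX2, GATA3, IRX5, POU3F3 and TFAP2A. EMX2 had rescaled values of 0.0329 and 0.0167 RPKM in UO-31, against 30.6 and 29.4 RPKM in OVCAR-4. PAX2 had 6.67 and 6.36 RPKM in UO-31, against 1.02 and 0.934 RPKM in RKO and at most 0.0577 RPKM in the other 3 lines. PAX8 had 63.9 and 66.1 RPKM in UO-31, against 81.2 and 81.3 RPKM in OVCAR-4 and at most 0.783 RPKM in COLO320DM, ABC-1 and RKO. After rescaling PAX8 was 0.51 log2 units higher in UO-31 than in OVCAR-4, against -0.32 as deposited. It thus separated UO-31 and OVCAR-4 from the other 3 lines. Without OVCAR-4, 4 of 16 lineage factors were distinctly higher (9.48% of all genes).

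Of 51 proximal tubule genes in the table, 14 were tested, and 7 were higher, 3 lower and 4 distinctly higher (median 0.79 log2 units). Of all genes, 38%, 46.1% and 4.23% were. The 3 lower members were AMN, SLC7A8 and GPX3. The list summed to 124 to 132 RPKM in UO-31, 502 to 510 RPKM in OVCAR-4, 224 to 255 RPKM in COLO320DM and 9.88 to 12.9 RPKM in ABC-1 and RKO. After rescaling the sums were 132 to 137 in UO-31 and 295 to 298 in OVCAR-4. Without OVCAR-4, 12 of the genes were tested, 8 were higher (47.4% of all genes) and 5 distinctly higher (median 2.05). A gene can pass the filter on low values through UO-31 alone, so these counts and those below describe the members tested and not the lists as a whole. The 4 that were distinctly higher were HAVCR1, VCAM1, MME and ANPEP. HAVCR1, kidney injury molecule 1, had 36 and 33.9 RPKM in UO-31, against 0 to 0.195 RPKM (median 0.0418) in the 8 other libraries, and stood 5.77 log2 units above the nearest line. VCAM1, an adhesion molecule found on injured tubule cells, had 36.8 and 34.9 RPKM in UO-31 and at most 0.0783 RPKM elsewhere. The brush border peptidases ANPEP (7.9 and 7.26 RPKM in UO-31, at most 0.0225 RPKM elsewhere) and MME (8.15 and 8.07 RPKM, at most 0.547 RPKM) were near 0 in each other line. Of the apical uptake genes, LRP2, the megalin receptor, had no value in either UO-31 library. Its partner CUBN had 0.0695 and 0.065 RPKM, and the phosphate transporter SLC34A1 had 0.0177 and 0 RPKM. The sodium-hydrogen exchanger SLC9A3 had 0.713 and 0.707 RPKM in UO-31 and did not pass the test in either direction, and 13 of the 51 genes averaged 1 RPKM or more in UO-31. CDH6, a cadherin of tubule and of ovarian tumors, had 5.32 and 4.53 RPKM in UO-31, against 98.4 and 99.3 RPKM in OVCAR-4.

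Among 31 distal nephron and collecting duct genes, 7 were tested, with 3 higher and 4 lower. CLDN16, a tight junction protein for magnesium recovery in the loop of Henle, had 17.2 and 16.4 RPKM in UO-31, against 6.53 and 6.72 RPKM in OVCAR-4 and at most 0.104 RPKM in the other 3 lines. WNK4, a kinase that controls salt transport in the distal tubule, had 5.06 and 4.65 RPKM in UO-31, against 0.114 to 0.341 RPKM elsewhere. Both were distinctly higher, whereas the kidney cadherin CDH16 had 1.06 and 0.948 RPKM and was not tested. HSD11B2, which inactivates cortisol in the collecting duct, was distinctly lower as deposited and not after rescaling.

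Of the markers of other tissues, CDX2, NKX2-1, WFDC2, PTPRC and PECAM1 were near 0 in UO-31, whereas the fibroblast and mesangial list was not low. CDX2, an intestinal transcription factor, had no value in either UO-31 library (set to 0), against 732 and 763 RPKM in COLO320DM. NKX2-1, a lung factor, had no value in UO-31 (set to 0), against 4.15 and 4.06 RPKM in ABC-1. Of the ovarian markers, WFDC2 had 0.242 and 0.481 RPKM in UO-31, against 370 and 349 RPKM in OVCAR-4, and SOX17 had 11.1 and 10.1 RPKM, against 195 and 193 RPKM. Of 14 ovarian markers, 11 were tested, 2 were higher and 9 lower, where 38% and 46.1% of all genes were. They summed to 85.6 to 87 RPKM in UO-31 and 1110 to 1130 RPKM in OVCAR-4 (88.9 to 92.5 and 646 to 668 after rescaling). The sums were 148 to 151 RPKM in ABC-1 and 16.3 to 49.6 RPKM in COLO320DM and RKO. Without OVCAR-4, 2 of 7 were distinctly higher (9.48% of all genes). The pan-leukocyte gene PTPRC had at most 0.00849 RPKM and the endothelial gene PECAM1 at most 0.027 RPKM in UO-31. The blood markers summed to 19.1 to 20.7 RPKM in UO-31, most of it CD68 (17.6 RPKM on average), and the endothelial markers to 12.3 to 12.9 RPKM. Of 15 fibroblast and mesangial markers, 8 were tested, and 6 were higher and 2 lower, with a median of 3.14 log2 units (3.34 after rescaling). They summed to 241 to 246 RPKM in UO-31, against 18.1 to 175 RPKM in the other libraries. COL1A1, PDGFRB and PDPN were distinctly higher, while the fibroblast collagens COL1A2 (0.187 and 0.236 RPKM) and COL3A1 (no value, set to 0) were near 0 in UO-31.

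**Figure D2:**
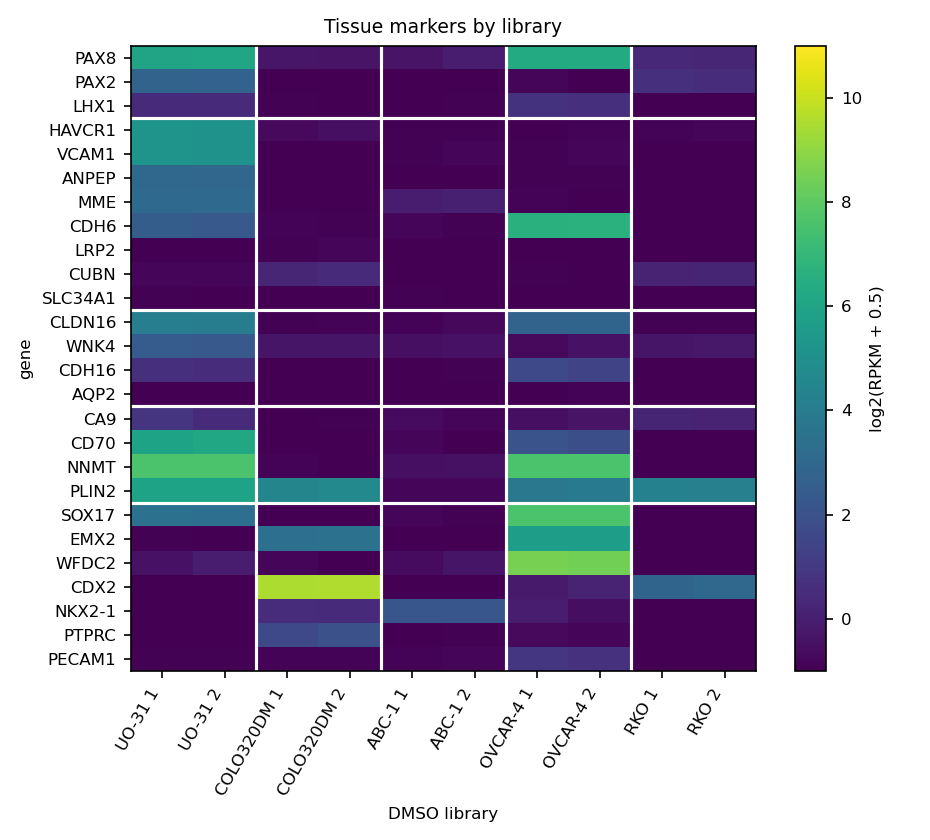
Heat map of tissue markers, 1 row per gene and 1 column per DMSO library, colored by log2(RPKM + 0.5), with white lines between lines and between kidney factors, proximal tubule genes, distal nephron genes, renal carcinoma genes and markers of other tissues. PAX8 is bright in UO-31 and OVCAR-4, HAVCR1 and VCAM1 are bright in UO-31 alone, and LRP2, CUBN and SLC34A1 are dark in UO-31. EMX2, drawn among the markers of other tissues, is also on the list of kidney lineage factors and was lower in UO-31.

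Of 30 genes used as markers of renal cell carcinoma, 22 were tested, 14 were higher, 8 lower, and 6 distinctly higher (9 of 20 without OVCAR-4). Of all genes, 38%, 46.1% and 4.23% were. The median difference was 0.72 log2 units, and 2.47 without OVCAR-4. The 8 lower members were EGLN3, FABP6, SCARB1, VEGFA, CXCR4, KIT, CP and HILPDA. The list summed to 1260 to 1290 RPKM in UO-31, against 5110 to 5230 RPKM in OVCAR-4 and 188 to 834 RPKM in the other 3 lines. After rescaling the sums were 1340 in UO-31 and 3030 in OVCAR-4. CD70, a ligand of the tumor necrosis factor family that clear cell tumors display, had 62.3 and 69.8 RPKM in UO-31, against 3.74 and 3.22 RPKM in OVCAR-4 and at most 0.0876 RPKM in the other 3 lines. TGFBI, a secreted adhesion protein, had 295 and 287 RPKM in UO-31, against 29.7 and 29.2 RPKM in OVCAR-4 and under 1 RPKM in the others. SPP1, or osteopontin, had 212 and 194 RPKM in UO-31, against 90.8 and 85 RPKM in OVCAR-4. Each of these genes had OVCAR-4 as its nearest line, at 4.06, 3.28 and 1.2 log2 units. PLIN2, which coats lipid droplets, had 61.4 and 62.8 RPKM in UO-31, against 0.0567 to 24.6 RPKM (median 16.4). The lactate exporter SLC16A3 had 198 and 194 RPKM in UO-31, against 0.406 to 76.6 RPKM (median 37.7). NNMT, a nicotinamide methyltransferase of clear cell tumors, had 196 and 192 RPKM in UO-31 and 196 and 194 RPKM in OVCAR-4, a difference of -0.01 log2 units as deposited and 0.83 after rescaling, and at most 0.217 RPKM in the other 3 lines. CA9, the carbonic anhydrase that marks clear cell tumors, had 1.27 and 0.848 RPKM in UO-31, under the filter.

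Of 38 genes of the hypoxia-inducible factor pathway tested, 22 were higher, 11 lower and 5 did not pass, where 38% of all genes were higher and 46.1% lower. None was distinctly higher, beside 4.23% of all genes, and 1 was distinctly lower (median 0.35 log2 units). After rescaling 1 gene, BNIP3L, was distinctly higher, and without OVCAR-4 there were 3. VHL itself had 20.7 and 21.1 RPKM in UO-31, against 14 to 28.6 RPKM (median 17.3) in the others, within their range. It was called higher than the mean of the other lines, as deposited and after rescaling. Its difference from OVCAR-4 was 0.09 log2 units as deposited and 0.90 after rescaling. EPAS1, which encodes HIF-2 alpha, had 36.8 and 37.5 RPKM in UO-31, against 50.6 to 55.7 RPKM in ABC-1 and OVCAR-4 and at most 1.19 RPKM in COLO320DM and RKO. Its difference from OVCAR-4 was -0.53 log2 units as deposited and 0.30 after rescaling. HIF1A had 94.1 and 90.7 RPKM in UO-31, against 153 and 163 RPKM in OVCAR-4 and 15.5 to 33.4 RPKM in the other 3 lines. It was below OVCAR-4 as deposited (-0.77 log2 units) and not separated from it after rescaling (0.06, adjusted p = 0.369, limma). VEGFA, the angiogenic target of both factors, was counted with the renal carcinoma markers and is not among these 38 genes. It was lower than in each line, with 5.29 and 5.76 RPKM in UO-31 against 9.66 to 33.2 RPKM, 0.77 log2 units below the nearest line. ALDOC, a glycolytic aldolase, was distinctly lower at 0.083 and 0.0548 RPKM in UO-31, against 1.28 to 25.5 RPKM. Most called members of the list went the other way, and the 22 higher ones included ADM, SLC2A1, SLC2A3, BNIP3, BNIP3L, LDHA, ENO2, PFKFB3, PFKFB4, P4HA1 and CITED2. The 11 lower ones were ALDOC, ARNT, EGLN2, PDK1, PGK1, HK1, HK2, KDM3A, NDRG1, ERO1L and PGF, of which HK1 did not pass after rescaling.

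UO-31 had abundant KRT8, KRT18 and KRT19 together with high levels of many mesenchymal genes. All 44 epithelial state genes were tested, and 11 were higher and 33 lower (median -1.93 log2 units, beside -0.10 for all genes). Without OVCAR-4, 13 were higher and 28 lower (median -1.29), where 47.4% and 34.3% of all genes were. KRT8 had 1820 and 1700 RPKM in UO-31, against 1580 to 1920 RPKM in ABC-1 and OVCAR-4, 73.3 and 74.6 RPKM in COLO320DM and 6.38 and 6.83 RPKM in RKO. KRT19 had 2210 and 2070 RPKM in UO-31, against 1330 and 1280 RPKM in ABC-1, 1150 RPKM in each OVCAR-4 library and at most 1.49 RPKM in COLO320DM and RKO. On KRT8 and KRT19 UO-31 was nearer to ABC-1 and OVCAR-4 than to COLO320DM and RKO. KRT7, another simple keratin of the list, was higher than the mean of the other lines, as deposited and after rescaling. It was far below OVCAR-4 (-7.37 log2 units as deposited, -6.53 after rescaling). Its rescaled values were 23.6 and 20.6 RPKM in UO-31, against 2080 RPKM in each OVCAR-4 library. The adhesion genes CDH1 and CLDN7 were near 0, whereas the junction genes CLDN4 (29.8 and 29.5 RPKM in UO-31) and JUP (38.8 and 35 RPKM) were higher than the average of the other lines. CDH1, E-cadherin, had 0.402 and 0.389 RPKM in UO-31, against 69.2 and 80.8 RPKM in ABC-1, 106 and 111 RPKM in OVCAR-4 and at most 0.304 RPKM in COLO320DM and RKO. The tight junction gene CLDN7 (0.341 and 0.405 RPKM in UO-31), the epithelial splicing factor ESRP1 (0.0847 and 0.036 RPKM) and the epithelial transcription factor GRHL2 (0.044 and 0.0436 RPKM) had the same pattern, with 24.1 to 186 RPKM in ABC-1 and OVCAR-4 and at most 0.172 RPKM in COLO320DM and RKO. EPCAM was intermediate, with 13.7 and 12 RPKM in UO-31, against 454 to 609 RPKM in ABC-1 and OVCAR-4 and 1.1 to 2.73 RPKM in COLO320DM and RKO, and its average difference of -1.38 log2 units did not pass without ABC-1 (-0.02, adjusted p = 0.75) or without OVCAR-4 (-0.14, adjusted p = 0.12). GRHL1 was the 1 member distinctly lower, with 0.421 and 0.367 RPKM in UO-31 against 1.26 to 20.4 RPKM.

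Of 46 mesenchymal state genes tested, out of 52, 40 were higher and 4 lower, and 14 were distinctly higher, beside 4.23% of all genes tested (26 of 47 without OVCAR-4). Their median difference was 2.48 log2 units, with 2.62 after rescaling. The fibroblast and mesangial markers given above also had a median above that of all genes (3.14 log2 units), and their part in the result was not tested. VIM, the intermediate filament of mesenchymal cells, had 1930 RPKM in each UO-31 library, against 540 and 580 RPKM in COLO320DM and 1.56 to 44.9 RPKM in the other 3 lines. CDH2, N-cadherin, had 121 and 116 RPKM in UO-31, against 6.04 and 6.1 RPKM in OVCAR-4 and under 1 RPKM in the others, 4.18 log2 units from the nearest line. N-cadherin rather than E-cadherin was thus the abundant classical cadherin of the pair in UO-31. LOXL2, an enzyme that cross-links collagen, had 181 and 174 RPKM in UO-31, against 0.101 to 5.07 RPKM (median 1.18). The membrane collagenase MMP14 had 165 and 154 RPKM in UO-31, against 0.108 to 22.6 RPKM (median 9.97). FN1, fibronectin, had 366 and 369 RPKM in UO-31, against 132 and 152 RPKM in ABC-1 and at most 9.66 RPKM in the others. The transcription factor TWIST1 had 8.03 and 7.06 RPKM in UO-31 and at most 0.0503 RPKM elsewhere. Of the other transcription factors on the list, ZEB2 was higher, ZEB1 did not pass, and SNAI1 was higher only after rescaling. PRRX1 was lower, and SNAI2 and TWIST2 were not tested. The 4 lower members were PRRX1, S100A4, TIMP3 and TPM2. The hyaluronan receptor CD44 had 193 and 190 RPKM in UO-31, against 0.132 to 43.9 RPKM (median 15.3). AXL, a receptor tyrosine kinase of mesenchymal tumor cells, had 175 and 176 RPKM in UO-31 but also 150 and 151 RPKM in RKO. The difference between those lines did not pass the test, which pools the spread of all 5 lines (adjusted p = 0.132, limma).

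Of 24 caveolar and contractile genes tested, 21 were higher and 3 lower, and 7 were distinctly higher (11 of 23 without OVCAR-4). CAV1, the coat protein of caveolae, had 150 and 156 RPKM in UO-31, against 49.6 and 52.5 RPKM in ABC-1, 30.7 and 31.5 RPKM in OVCAR-4 and at most 3.8 RPKM in COLO320DM and RKO. PTRF, which encodes cavin-1, had 309 and 293 RPKM in UO-31, against 1.39 to 95.2 RPKM (median 66.4). The actin cross-linker FLNC had 171 and 172 RPKM in UO-31, against 0.00782 to 5.68 RPKM (median 0.796). MYLK, the kinase that activates myosin, had 177 and 170 RPKM in UO-31, against 0 to 17 RPKM (median 2.46).

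**Figure D3:**
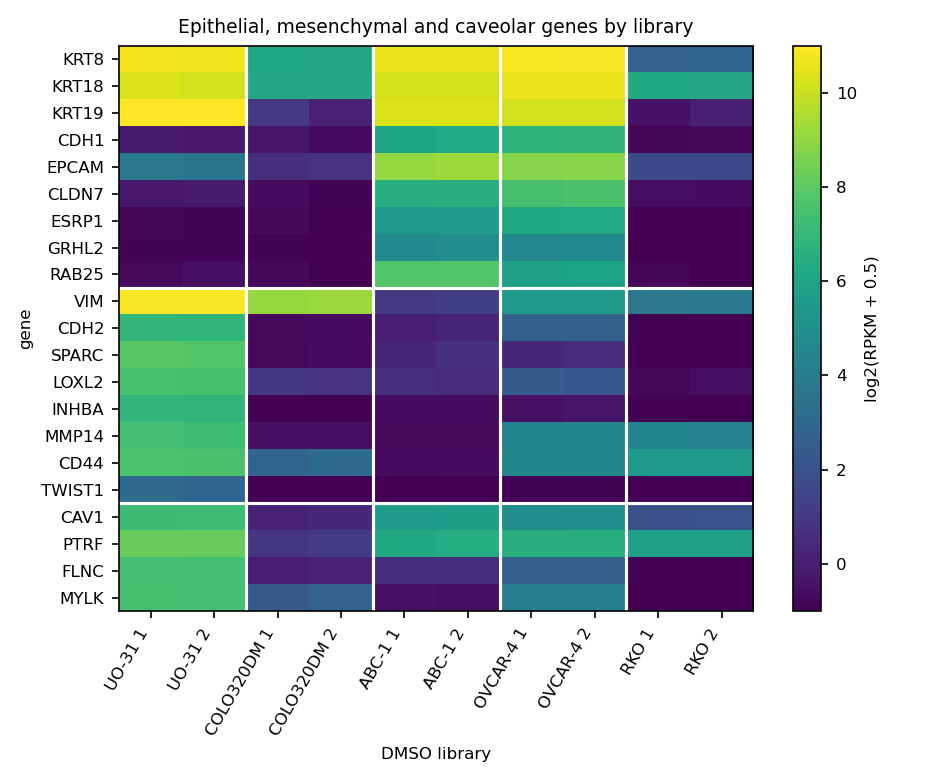
Heat map of epithelial genes (top block), mesenchymal genes (middle) and caveolar and contractile genes (bottom), 1 row per gene and 1 column per DMSO library, colored by log2(RPKM + 0.5). UO-31 is bright for KRT8, KRT18 and KRT19 and dark for CDH1, CLDN7, ESRP1, GRHL2 and RAB25, and it is bright for the mesenchymal and caveolar blocks, where VIM reaches 1930 RPKM and TWIST1 is dim.

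The study dealt with tankyrase, which marks AXIN and angiomotin proteins for destruction and so acts on WNT/β-catenin and YAP signaling. TNKS had 5.44 and 5.35 RPKM in UO-31, against 3 to 5.3 RPKM (median 4.37), with an average difference of 0.33 ± 0.101 log2 units (SE, adjusted p = 0.00868, limma), which no longer passed when either UO-31 library was left out (adjusted p = 0.07 and 0.056) or against the RPMI-1640 lines alone (0.20, adjusted p = 0.12). TNKS2 had 12.5 and 12.3 RPKM in UO-31, against 6.25 to 23.4 RPKM (median 12.5), and its average difference did not pass the test (-0.04 ± 0.097 log2 units, SE, adjusted p = 0.688; 0.06 after rescaling). Of 36 tankyrase pathway genes tested, 17 were higher, 14 lower and none distinctly so, with a median of 0.13 log2 units. After rescaling 1 of them, WWTR1, a partner of YAP, was distinctly higher, and without OVCAR-4 there were 4 (3 with rescaling as well), beside 9.48% of all genes.

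Targets of YAP, a transcription cofactor that responds to cell spreading and tension, and of the TEAD transcription factors were among the lists with the larger differences. Of 31 tested, 28 were higher and 3 lower, with 8 distinctly higher (15 of 30 without OVCAR-4) and a median of 2.32 log2 units. Their RPKM summed to between 3400 and 3510 in UO-31, against 5160 to 5440 in OVCAR-4 and 189 to 1690 in the other 3 lines. After rescaling the sums were 3610 to 3650 in UO-31, against 3060 to 3160 in OVCAR-4, so the order of these lines depends on the scale. CTGF had 227 and 221 RPKM in UO-31, against 341 and 364 RPKM in OVCAR-4 and 0.882 to 28.6 RPKM in the other 3 lines. CYR61 had 415 and 399 RPKM in UO-31, against 1770 and 1870 RPKM in OVCAR-4 and 3.55 to 79.9 RPKM in the others, and ANKRD1 had 257 and 234 RPKM, against 443 and 499 RPKM in OVCAR-4 and at most 28.2 RPKM in the others. These 3 classical targets were higher than the average of the other lines. As deposited each was below OVCAR-4, whereas after rescaling the difference was 0.19 log2 units for CTGF, -0.10 for ANKRD1 (adjusted p = 0.21, limma) and -1.32 for CYR61.

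WNT/β-catenin targets and receptors showed no common direction, with 16 of 38 tested higher, 20 lower and 5 distinctly higher (median -0.53 log2 units), or 6 after rescaling and 7 of 36 without OVCAR-4. AXIN2, the feedback inhibitor induced by β-catenin in many tissues, had 0.337 and 0.194 RPKM in UO-31, against 116 and 134 RPKM in COLO320DM, 5.46 to 7.98 RPKM in ABC-1 and OVCAR-4 and 0.644 and 0.515 RPKM in RKO. The secreted antagonist DKK1 had 12.9 and 13.1 RPKM in UO-31, against 2.84 and 3.25 RPKM in ABC-1 and under 1 RPKM in the others. DKK3, a secreted protein of the same family, had 118 and 114 RPKM in UO-31, against 12.4 and 13.5 RPKM in OVCAR-4 and under 1 RPKM in the others. EPHB2, a guidance receptor of crypt cells, had 70.2 and 71.8 RPKM in UO-31, against 4.35 to 15.8 RPKM (median 8.96). MYC had 70.2 and 67.9 RPKM in UO-31, against 1510 and 1650 RPKM in COLO320DM, 15 and 17 RPKM in ABC-1, 81.9 and 78.3 RPKM in OVCAR-4 and 159 and 155 RPKM in RKO. Its average difference was -0.96 ± 0.051 log2 units (SE), and without COLO320DM it was 0.23. MYC differed from OVCAR-4 by -0.21 log2 units as deposited and by 0.62 after rescaling. CCND1, cyclin D1, had 135 and 133 RPKM in UO-31, against 187 and 191 RPKM in OVCAR-4, 61.2 and 65.6 RPKM in ABC-1, 40.7 and 38.9 RPKM in RKO and 4.69 and 5.27 RPKM in COLO320DM. Its difference from OVCAR-4 was -0.49 log2 units as deposited and 0.35 after rescaling.

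Matrix genes formed the next group. Of 19 collagen genes tested, out of 28, 14 were higher and 3 lower, with 7 distinctly higher (13 of 19 without OVCAR-4) and a median of 2.78 log2 units. COL1A1 had 88 and 84.9 RPKM in UO-31, against 0.0177 to 6.39 RPKM (median 2.71), although its usual partner chain COL1A2 was near 0. The basement membrane chains COL4A1 (323 and 308 RPKM in UO-31) and COL4A2 (449 and 427 RPKM) were also abundant in OVCAR-4, which had 296 and 309 RPKM of COL4A1 and 499 and 512 RPKM of COL4A2, and had at most 15.7 RPKM in the other 3 lines. The differences from OVCAR-4 were 0.06 and -0.21 log2 units as deposited and 0.90 and 0.63 after rescaling. COL4A5, a chain of the glomerular and tubular basement membrane that is mutated in Alport syndrome, had 8.34 and 8.05 RPKM in UO-31 and at most 0.0262 RPKM in any other library. COL8A1 had 97.8 and 91.3 RPKM in UO-31, against 15.8 and 16.7 RPKM in OVCAR-4 and at most 0.111 RPKM in the others. Among 24 laminin and integrin genes tested, 20 were higher, 3 lower and 3 distinctly higher (11 of 23 without OVCAR-4). LAMA4, a laminin chain of vessels and muscle, had 49.1 and 47.7 RPKM in UO-31, against at most 0.439 RPKM, 5.72 log2 units from the nearest line. ITGA3, a laminin receptor subunit of the kidney, had 374 and 365 RPKM in UO-31, against 107 and 105 RPKM in OVCAR-4 and 0.487 to 17 RPKM in the other 3 lines.

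UO-31 also expressed inflammatory secreted factors. Of 43 such genes, 25 were tested, 21 were higher and 3 lower, and 6 were distinctly higher (15 of 21 without OVCAR-4). The median was 3.03 log2 units. The list summed to 998 to 1060 RPKM in UO-31, against 1560 to 1680 RPKM in OVCAR-4 and 38.9 to 199 RPKM in the other 3 lines. After rescaling the sums were 1060 to 1100 in UO-31, against 927 to 971 in OVCAR-4. IL32, a cytokine of epithelial and immune cells, had 643 and 597 RPKM in UO-31, against 149 and 152 RPKM in RKO, 65.1 and 71.7 RPKM in OVCAR-4 and at most 6.61 RPKM in COLO320DM and ABC-1. The neutrophil chemokine CXCL6 had 24.4 and 22.6 RPKM in UO-31, against 1.8 and 1.65 RPKM in OVCAR-4 and at most 0.0475 RPKM in the others. Its near copy CXCL5 had 26.4 and 26 RPKM in UO-31, against 6.68 and 9.03 RPKM in OVCAR-4 and at most 0.0691 RPKM in the others, and reads shared by the pair make the split between them uncertain. CSF1, the macrophage growth factor, had 23.6 and 24.2 RPKM in UO-31, against 0.235 to 2.94 RPKM (median 1.44). IL6 and the complement gene C3 were also expressed in OVCAR-4. IL6 had 6.02 and 5.25 RPKM in UO-31, against 4.63 and 6.3 RPKM in OVCAR-4, and C3 had 76.4 and 75.5 RPKM, against 238 and 251 RPKM in OVCAR-4, both under 1 RPKM in the other 3 lines. After rescaling IL6 was 0.80 log2 units above OVCAR-4 and C3 was 0.84 log2 units below it.

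The promoters of 3 of these 6 genes hold a form of the site bound by NF-kB (GGG, any 2 bases, then TTTCC, searched on both strands) and are printed because the match lies near the start and in CXCL5 and CXCL6 within closely related sequence. The windows are the 250 bases before the RefSeq start in GRCh38.p14, at chr4:73998678-73998927 on the minus strand for CXCL5, chr4:73836428-73836677 on the plus strand for CXCL6 and chr16:3065153-3065402 on the plus strand for IL32 (1 of its 2 windows), with matches in capitals.
CXCL5: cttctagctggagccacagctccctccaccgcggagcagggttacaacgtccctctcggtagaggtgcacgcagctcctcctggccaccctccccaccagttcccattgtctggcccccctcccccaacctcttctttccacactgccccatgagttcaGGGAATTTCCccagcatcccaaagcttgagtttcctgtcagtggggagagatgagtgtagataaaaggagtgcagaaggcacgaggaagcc
CXCL6: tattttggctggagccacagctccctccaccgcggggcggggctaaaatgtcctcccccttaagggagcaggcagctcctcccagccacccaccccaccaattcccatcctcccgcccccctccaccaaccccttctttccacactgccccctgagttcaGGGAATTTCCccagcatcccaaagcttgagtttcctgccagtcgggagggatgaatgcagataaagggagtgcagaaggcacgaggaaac
IL32: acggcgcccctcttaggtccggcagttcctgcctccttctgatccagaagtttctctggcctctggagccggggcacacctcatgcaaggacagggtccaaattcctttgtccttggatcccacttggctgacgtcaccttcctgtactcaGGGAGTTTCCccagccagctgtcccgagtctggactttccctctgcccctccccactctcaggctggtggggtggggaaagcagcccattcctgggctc
The matches began 91, 90 and 99 bases before the start. Of all RefSeq promoter windows of this length 1.73% hold the motif, as do 1.92% of the windows of genes tested and 2.7% of those of distinctly higher genes. Of 29 inflammatory genes with a promoter, 11 held it. A match describes the letters of the window, and binding was not measured.

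**Figure D4:**
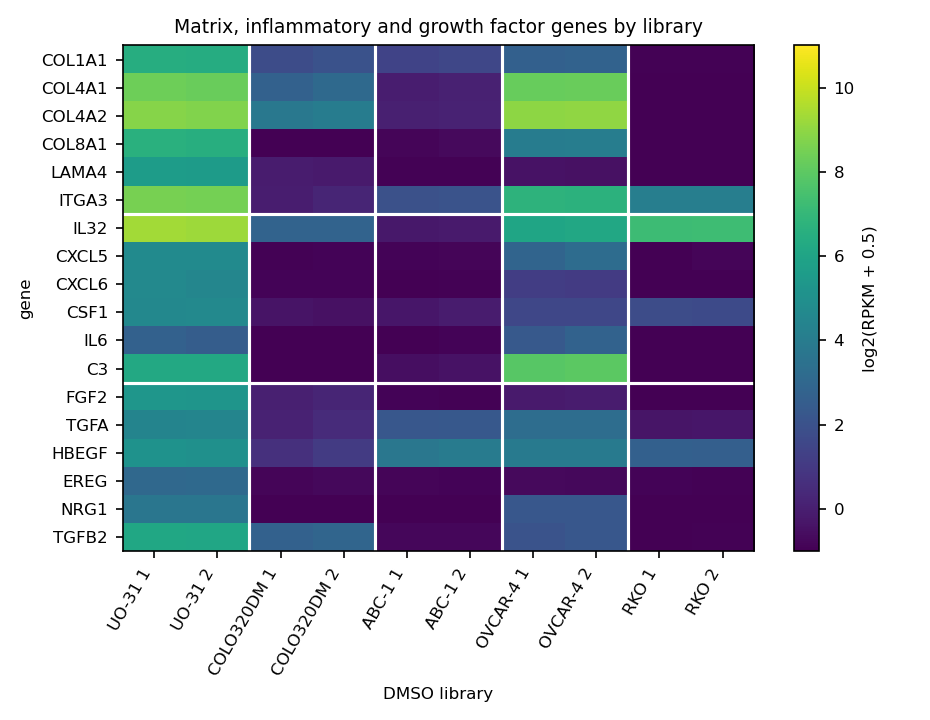
Heat map of matrix genes (top block), inflammatory genes (middle) and growth factor genes (bottom), 1 row per gene and 1 column per DMSO library, colored by log2(RPKM + 0.5). COL4A1, COL4A2 and C3 are bright in UO-31 and OVCAR-4, where IL6 is much dimmer, whereas LAMA4 and FGF2 are bright in UO-31 alone.

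Of 38 interferon and antigen presentation genes tested, 27 were higher, 5 lower and 4 distinctly higher (13 of 37 without OVCAR-4), with a median of 1.11 log2 units. OAS1, a sensor of double-stranded RNA with close relatives, had 10.4 and 10.2 RPKM in UO-31, against 1.28 and 1.36 RPKM in OVCAR-4 and at most 0.102 RPKM in the others. PSMB9, a subunit of the immunoproteasome, had 46.9 and 47.7 RPKM in UO-31, against 0.39 to 12.7 RPKM (median 4.89). HLA-B, whose counts share reads with other class I genes, had 234 and 219 RPKM in UO-31 and 244 and 245 RPKM in OVCAR-4, against 6.59 to 34.8 RPKM in the other 3 lines (UO-31 minus OVCAR-4 -0.11 log2 units as deposited, 0.73 after rescaling). BST2, tetherin, which holds viruses at the cell surface, ran opposite to the list and was distinctly lower at 0.187 and 0.232 RPKM in UO-31, against 1.35 to 217 RPKM (median 76.6).

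Of 19 EGF and FGF ligand genes tested, out of 29, 13 were higher, 6 lower and 6 distinctly higher (8 of 18 without OVCAR-4), with a median of 2.23 log2 units. FGF2 had 38.8 and 38.1 RPKM in UO-31 and at most 0.694 RPKM elsewhere, 5.13 log2 units from the nearest line. The EGF receptor ligands EREG (7.77 and 7.99 RPKM in UO-31, at most 0.12 RPKM elsewhere), TGFA (20.5 and 21.6 RPKM, at most 9.26 RPKM) and HBEGF (33.8 and 31.7 RPKM, at most 15.3 RPKM) were each above all 8 other libraries. NRG1, a ligand of ERBB3 and ERBB4, had 12.4 and 12.5 RPKM in UO-31, against 4.22 and 4.33 RPKM in OVCAR-4, and had no value in the other 3 lines. TGFB2 had 71.3 and 67.4 RPKM in UO-31, against 0.00587 to 7.16 RPKM (median 1.9). Of 28 receptor tyrosine kinase genes tested, 9 were higher and 17 lower, where 38% and 46.1% of all genes were (median -0.46 log2 units, and -0.04 without OVCAR-4). PDGFRB, the receptor of pericytes and mesangial cells, had 16 and 16.3 RPKM in UO-31, against 1.39 and 1.69 RPKM in COLO320DM and at most 0.125 RPKM in the others. MET, the hepatocyte growth factor receptor mutated in papillary kidney tumors, had 53.2 and 54.2 RPKM in UO-31, against 48.6 to 58 RPKM in ABC-1 and OVCAR-4 (0.77 log2 units above OVCAR-4 after rescaling). INSR, the insulin receptor, was distinctly lower at 0.224 and 0.212 RPKM in UO-31, against 1.13 to 7.08 RPKM (median 3.13).

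Of 10 ABC drug transporter genes tested, 7 were higher and 3 lower, where 38% and 46.1% of all genes were. ABCC3, an exporter of organic anions, was distinctly higher at 13.9 and 12.7 RPKM in UO-31, against 2.44 and 2.46 RPKM in OVCAR-4 and at most 0.0263 RPKM in the others. ABCB1, the multidrug pump of the tubule brush border, had 16.8 and 16.3 RPKM in UO-31, against 42.7 and 51.9 RPKM in COLO320DM and at most 0.0228 RPKM in the other 3 lines. Of 38 glutathione and NRF2 genes tested, 23 were higher, 14 lower and 2 distinctly higher (7 of 37 without OVCAR-4). HMOX1, which degrades heme, had 63.1 and 62 RPKM in UO-31, against 1.89 to 26.6 RPKM (median 15), and GPX1, a peroxidase, had 702 and 671 RPKM, against 0.313 to 326 RPKM (median 127). Of 13 metallothionein genes tested, 8 were higher and 3 lower. MT2A had 2990 and 2970 RPKM in UO-31 and 3240 and 3150 RPKM in RKO, a difference that did not pass the test (adjusted p = 0.0607, limma), against 962 and 955 RPKM in OVCAR-4 and 59.2 to 98.9 RPKM in COLO320DM and ABC-1. MT1L, a near copy of other metallothionein genes and therefore uncertain, was the 1 member distinctly higher.

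Of 33 HOX genes tested, 22 were higher and 9 lower, where 38% and 46.1% of all genes were. The 3 that were distinctly higher lie in the HOXA cluster (4.23% of all genes were distinctly higher). Without OVCAR-4 the count was again 3 of 33, near the 9.48% of all genes. HOXA3 had 22 and 22.4 RPKM in UO-31, against 0.0939 to 1.69 RPKM (median 0.479). HOXA4 had 13.9 and 13.8 RPKM in UO-31, against 0.0495 to 2.53 RPKM (median 0.946), and HOXA10 had 11.2 and 11 RPKM, against 0 to 4.43 RPKM (median 1.29). Of 44 cell cycle genes, 11 were higher and 30 lower (median -0.52 log2 units), where 38% and 46.1% of all genes were. Without OVCAR-4, 15 were higher and 23 lower, where 47.4% and 34.3% of all genes were. E2F2, a transcription factor of S phase entry, had 1.08 and 1.12 RPKM in UO-31, against 5.18 to 13 RPKM (median 7.23), and was distinctly lower. The CDK inhibitor CDKN1C was distinctly higher at 29.5 and 29.9 RPKM in UO-31, against 0.506 to 13.4 RPKM (median 2.18). CDKN2A, which encodes p16, had 0.346 and 0.405 RPKM in UO-31, against 211 and 208 RPKM in OVCAR-4, 47.7 and 39.1 RPKM in ABC-1, 17.8 and 16.2 RPKM in COLO320DM and 0 and 0.0282 RPKM in RKO.

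**Figure D5:**
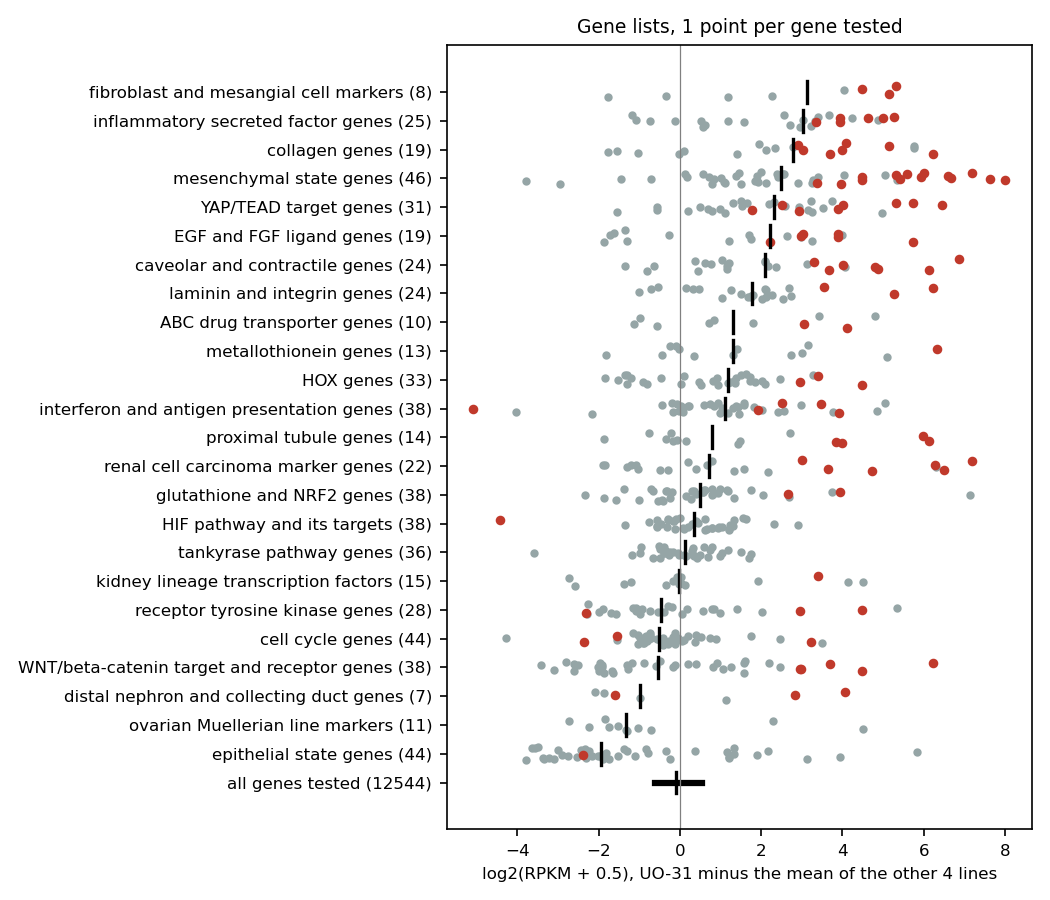
Difference between UO-31 and the mean of the other 4 lines on the log2(RPKM + 0.5) scale for every gene tested in each list with at least 7 genes tested (number in brackets), with black ticks at the list medians and red points for distinctly higher or lower genes; the thick bar of all genes tested spans the middle 50% of genes. Fibroblast and mesangial (3.14), inflammatory (3.03), collagen (2.78) and mesenchymal (2.48) lists have medians far above the median of all genes (-0.10), and the epithelial list (-1.93) lies below it.

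Among the genes distinctly lower in UO-31, the 15 farthest from the nearest line had diverse roles. ASS1, argininosuccinate synthetase, makes arginine from citrulline, a step at which the proximal tubule is active. It had 1.29 and 0.931 RPKM in UO-31, against 19.6 and 20.2 RPKM in COLO320DM, 205 and 209 RPKM in ABC-1, 136 and 135 RPKM in OVCAR-4 and 18.5 and 20.7 RPKM in RKO, and stood 3.65 log2 units under the nearest line (average -5.19 ± 0.075, SE, adjusted p = 9.5e-15, limma). The neuropeptide gene GAL had 0.178 and 0.235 RPKM in UO-31, against 20.2 to 102 RPKM (median 49.4). LRP3, a receptor of the low-density lipoprotein family, had 0.0372 and 0.086 RPKM in UO-31, against 14.7 to 44.4 RPKM (median 25.5). The sialomucin gene PODXL2 had 2.42 and 2.25 RPKM in UO-31, against 37.9 to 175 RPKM (median 57.6). NRARP, a feedback inhibitor of NOTCH, had 0.471 and 0.536 RPKM in UO-31, against 6.18 to 19.2 RPKM (median 12.4), and the splicing factor HNRNPLL had 1.58 and 1.56 RPKM, against 14.3 to 33 RPKM. HIST3H2A, a histone gene with near copies, had no value in either UO-31 library (set to 0), against 6.09 to 24.3 RPKM. The others were DEF6, TLE2, RPP25, SAPCD2, CPVL, LRRC41, NXPH4 and LPHN1. All 15 kept the call in every alternative tried. Of the 188 distinctly lower genes, 88 were under 1 RPKM in UO-31 and 99 had at least 5 RPKM in each other line.

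OVCAR-4 was the line nearest to UO-31. Across the 12544 genes, the rescaled log2 differences of UO-31 had an SD of 1.448 from OVCAR-4, 1.67 from RKO, 1.782 from ABC-1 and 1.791 from COLO320DM. Spearman correlations across genes, which are not independent replicates, ran in the same order at 0.787, 0.748, 0.707 and 0.688. For 325 of the 531 distinctly higher genes OVCAR-4 was the nearest line, a count that its higher scale raises: among the genes called both ways the rescaled nearest line was OVCAR-4 for 213, COLO320DM for 103, RKO for 94 and ABC-1 for 92. The libraries given 1 µM G007-LK in all 5 lines were compared in the same way, with 485 of the 531 and 150 of the 188 genes called there too. HAVCR1 had 41.1 and 20.9 RPKM in the G007-LK libraries of UO-31, SPP1 449 and 374 RPKM and HMOX1 198 and 182 RPKM, each of them called distinctly higher in the DMSO libraries.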

How the data were processed

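The authors sequenced poly(A) RNA on an Illumina HiSeq instrument, aligned reads to hg19 genes with SOAPaligner/SOAP2 (version not given in the sources used here) and deposited RPKM per gene and library. Their tables of G007-LK against DMSO (log2 ratios and NOISeq probabilities) were not used. Missing values were set to 0, and every RPKM of 0 given here stands for a missing value. Of 21610 entries, 8 without a symbol (at most 0.00134% of RPKM) were left out and 371 repeated symbols were joined, giving 21201 symbols. The hyphens of 822 symbols, lost in the table, were restored. Genes averaging 1 RPKM or more over the 10 DMSO libraries were fitted as log2(RPKM + 0.5) with limma 3.58.1 (statmod 1.5.0, R 4.3.3; trend and robust), with 1 mean per line, and p-values were adjusted over all 12544 genes (Benjamini-Hochberg). UO-31 was contrasted with the equally weighted mean of the other lines and with each line. The fit was tested on simulated data. Depth is unknown, so counting error could not be given. Promoters came from RefSeq tables (GRCh38.p14), and Python 3.11.15, numpy 2.4.6, pandas 2.3.3 and matplotlib 3.10.9 handled tables and figures.

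Members, the 28 lists (880 of 885 entries found) and tests were chosen with earlier results of these data known. Named genes are the 15 distinctly higher and 15 distinctly lower genes farthest from the nearest line (at least 5 RPKM in UO-31, or in each other line; small RNA genes left out), up to 6 distinct members per list and direction, defining markers, and TNKS, TNKS2, MYC and CCND1; some list members were named after their values were seen. Alternatives were pseudocounts of 0.1 and 1, other filters, 3 rescalings, a fit without trend and robust estimation, all 20 or the G007-LK libraries, a replicate block, single libraries, lines or media, and, added after seeing the data, a difference of 2 log2 units and OVCAR-4 left out with rescaling.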

Additional observations from a re-analysis of the deposited data

How the results depend on the processing

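The 531 distinctly higher genes became 290 with a mean of at least 5 RPKM (fewer genes tested), 244 with 2 log2 units demanded, 1155 without OVCAR-4 (1036 with rescaling as well), 809 against the RPMI-1640 lines and 1545 against the EMEM lines. The 188 distinctly lower genes became 33 with 2 log2 units demanded, 350 after quantile normalization, 299 without COLO320DM, 341 without ABC-1, 430 without RKO, 290 without OVCAR-4 and rescaled, 964 against the RPMI-1640 lines and 379 against the EMEM lines. Fewer lines to differ from make the call easier, and the cause of the quantile result was not tested. The demand for 2 log2 units and the joint change of OVCAR-4 and scaling were chosen after seeing the data. With single libraries left out, the distinctly higher genes numbered 521 to 539, the distinctly lower 184 to 194, and the genes past the threshold 9585 to 10963 against the mean of lines (10557 with all libraries; 4285 to 5056 higher, 5137 to 6143 lower), 9586 to 10344 against COLO320DM, 9514 to 10670 against ABC-1, 10446 to 11250 against OVCAR-4 and 9230 to 10461 against RKO. A lone library is then assumed to vary like the other lines.

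Replicate numbers carry no stated pairing: differences between replicates correlated over 0.1 in 1 of 10 pairs of lines (-0.025 to 0.367), and a fit with the replicate block gave 10719 genes past the threshold, 530 distinctly higher and 188 distinctly lower. Of 4428 combinations of a named gene and a setting, 8 reversed direction, all in TNKS2 and MYC. TNKS2 (-0.04) was 0.06 after rescaling, 0.00 in the G007-LK libraries, -0.09 to 0.01 with single libraries left out (0.01 without COLO320DM DMSO 2), 0.09 without ABC-1, 0.23 without OVCAR-4 and 0.10 without OVCAR-4 and rescaled. MYC (-0.96) was 0.23 without COLO320DM and 0.45 against the EMEM lines. Without read counts, low values carry an unknown counting error.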

Other observations

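Metabolic and transport genes outside the lists also separated UO-31 from each other line; they were chosen after their values were seen, so their differences are a description. UGT2B7, a glucuronosyltransferase of liver and kidney, had 21.8 and 19.4 RPKM in UO-31 and at most 0.0442 RPKM elsewhere. SLC22A3, an organic cation transporter, had 6.91 and 6.44 RPKM in UO-31, against at most 0.0259 RPKM, and SLC16A12, a creatine transporter of the kidney, had 9.63 and 9.14 RPKM, against at most 0.382 RPKM. BHMT2, a methyltransferase that makes methionine in liver and kidney, had 9.24 and 8.16 RPKM in UO-31, against 0.0675 to 0.36 RPKM. Each of these 4 genes was distinctly higher both as deposited and after rescaling.

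PTGIS, prostacyclin synthase, had 136 and 132 RPKM in UO-31, against 0.05 to 2.8 RPKM, and PLAU, urokinase, had 232 and 229 RPKM, against 0.209 to 27.2 RPKM. TRIM22, an interferon-induced ubiquitin ligase, had 49.7 and 50.8 RPKM in UO-31 and at most 0.946 RPKM elsewhere. In the other direction, KHK, the fructokinase that the proximal tubule uses, had 0.208 and 0.432 RPKM in UO-31, against 4.49 to 10.9 RPKM. UCP2, a mitochondrial carrier, had 3.3 and 3.49 RPKM in UO-31, against 25.4 to 241 RPKM, and the transcription factor gene CEBPA had 0.0533 and 0.0352 RPKM, against 1.82 to 22.5 RPKM. MTHFD2, a mitochondrial folate enzyme, had 38.3 and 36.5 RPKM in UO-31, against 87.8 to 157 RPKM, and was distinctly lower as deposited and not after rescaling.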
